A study of Mus musculus with 10 samples.

Results

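In kidneys left unclamped while the other kidney of the same mouse went through ischemia and reperfusion, newly transcribed RNA was compared with amplified total RNA. The comparison asks which messages were being made beyond their standing level 3 h after reperfusion. It uses the 1 array of newly transcribed RNA and the 2 arrays of amplified total RNA from contralateral kidneys, 3 of the 10 arrays of the series, and every probe set except the 64 AFFX controls. Of the remaining 22626 probe sets, 13575 were bright enough to be tested, and those with 1 gene symbol covered 8300 genes.

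All mice were C57/BLACK6 males of 7 weeks and about 20 g. In the contralateral group 1 kidney was clamped for 45 min under ether, and the unclamped one was taken 3 h after reperfusion. These mice received 4-thiouridine (s4U, 200 µM, into the peritoneum) 1 h and 2 h after reperfusion, together with tritiated cytidine in 1 ml of saline. Normal mice received the same mixture at 0 h and 1 h and gave their kidneys at 2 h, without surgery. The labels name no sham-operated group. The kidney group therefore cannot be told apart from surgery, anaesthesia or timing. Each kidney group has 1 array of newly transcribed RNA, 2 of amplified total RNA and 2 of total RNA. The titles call the arrays biological replicates. Whether amplified and newly transcribed RNA came from the same mice is not stated.

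s4U is taken up by cells and built into RNA in place of uridine, so that RNA made after the injection carries a thiol group by which it can be separated from older RNA. A message that is abundant in new RNA relative to the standing pool is made quickly for its level, as short-lived messages are, or has just been switched on. A message that is scarce in new RNA relative to the pool is typically long-lived. In the hours after injury to one kidney, the blood carries cytokines and stress hormones to the other one, and acute phase and interferon-induced genes are classic targets of such signals.

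The sharpest rises in newly transcribed RNA included acute phase and interferon-induced genes, and the deepest falls included genes of lipid transport, the proteasome and the mitochondrial ribosome. On the log2 scale, where 1 is a doubling, Saa3 rose by 4.55 and Ifit1 by 3.66, while Apoe fell by 4.02 and Psmb7 fell by 3.64. A gene was called higher or lower when it differed by at least 2-fold with an adjusted p under 0.05 in limma, a linear model fitted to all probe sets at once. By this rule 910 of 8300 genes (11.0%) were called higher and 1198 (14.4%) lower, and the median gene differed by 0.01. Among probe sets 1491 of 13575 (11.0%) were higher and 2148 (15.8%) lower, and 183 and 337 of them by at least 4-fold. The lone newly transcribed array is assumed to vary like the groups with 2 arrays, so no difference below has a replicate check, and p-values measure only the spread between these arrays.

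**Figure D1:**
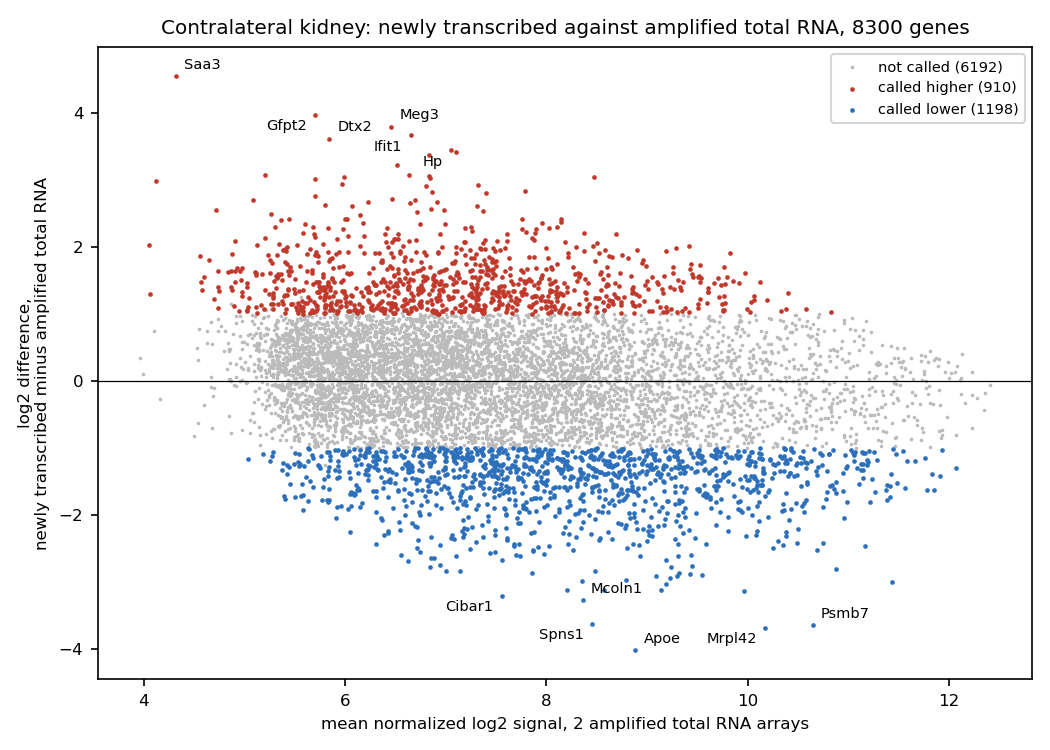
Each point is 1 of 8300 genes in contralateral kidneys. The horizontal axis is the mean normalized log2 signal of the 2 amplified total RNA arrays and the vertical axis the log2 difference, newly transcribed minus amplified total RNA. Red marks the 910 genes called higher, blue the 1198 called lower, and names mark the 6 largest rises and falls under the naming rule, from Saa3 at 4.55 to Apoe at -4.02.

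The newly transcribed array stood apart from the amplified ones in ways that touch every result below. Its median deposited intensity was 18.6, against 26.6 and 49.8 in amplified total RNA. Its Gapdh control probe sets had a 3'/5' intensity ratio of 68.9, against 6.23 and 4.39, and those of Actb one of 24.8, against 8.27 and 7.34. The normal newly transcribed array, in contrast, was the brightest of the series, with a median of 70.3 and a Gapdh ratio of 12.7. Probe sets whose ID ends in _x_at, which can cross-hybridise with other transcripts, were called higher in 28.0% of 1074 and lower in 4.84%. Those with a plain ending were called higher in 8.56% of 8737 and lower in 16.0%. In normal kidneys the same 1074 were called higher in 5.68% and lower in 16.0%. The part of these features in any single result was not tested, and genes measured by an _x_at probe set are marked as such. When arrays were scaled on their medians instead of quantile normalized, 844 probe sets were higher and 2741 lower, so that 23.5% of the calls were rises, against 41.0% with quantile normalization. That scaling moved the median of all probe sets to -0.22.

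**Figure D2:**
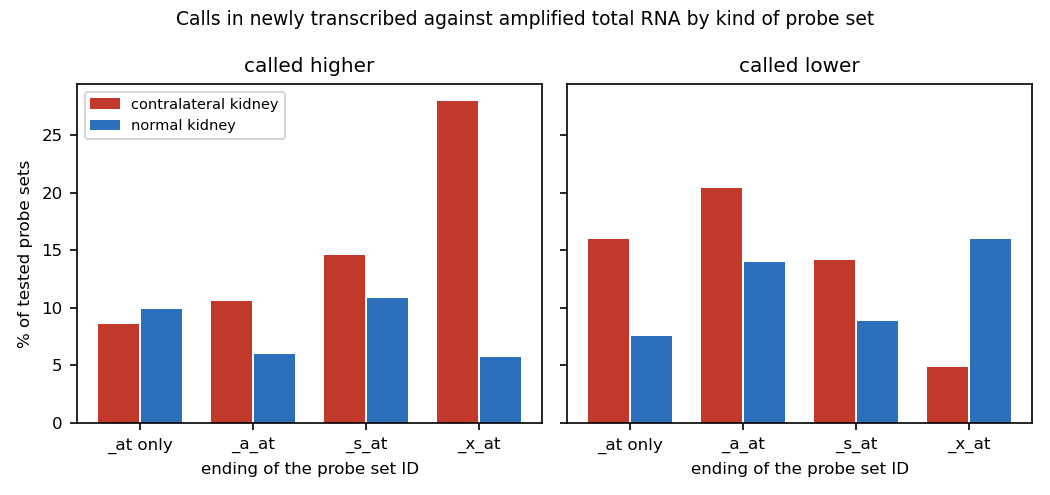
Bars give the percent of tested probe sets called higher (left panel) or lower (right panel) in newly transcribed against amplified total RNA, by the ending of the probe set ID, in contralateral (red) and normal (blue) kidneys. The _x_at probe sets stand out in contralateral kidneys, with 28.0% called higher and 4.84% lower.

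The RNA was that of kidney in both preparations. Uromodulin (Umod), made by the thick ascending limb, had a deposited intensity of 3497 on the newly transcribed array and 2853 and 3674 on the amplified arrays, and the kidney androgen-regulated gene Kap had 2729, against 4216 and 5081. The collecting duct water channel gene Aqp2 gave 214.0 in new RNA, against 824 and 1331 in amplified total RNA. Nephrin (Nphs1), which marks podocytes, was dim throughout, at 15.4 in new and 43.1 and 76.8 in amplified total RNA. In such bulk samples, fewer cells of a type and less RNA per cell cannot be told apart.

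Promoters of some interferon-stimulated and acute phase genes called higher are shown first, because several of these genes share short motifs near their start sites. Only windows that hold a match are shown. The interferon-stimulated response element was searched on both strands as GAAA, any 2 bases and GAAA again, and the STAT site as TTCNNNGAA, which reads the same on both strands. Windows run from 250 bases before to 50 after the start of a gene, from RefSeq on GRCm38.p6, 5′ to 3′ along the gene. Capitals mark the interferon element in the first 4 windows and the STAT site in the last 2.
Ifit1, chr19:34640639-34640938, plus strand: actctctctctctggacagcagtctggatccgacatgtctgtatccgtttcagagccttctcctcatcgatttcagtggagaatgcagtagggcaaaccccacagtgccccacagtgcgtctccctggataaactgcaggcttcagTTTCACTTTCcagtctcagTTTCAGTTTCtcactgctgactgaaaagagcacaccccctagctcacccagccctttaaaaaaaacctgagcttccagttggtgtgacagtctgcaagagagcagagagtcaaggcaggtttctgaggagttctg
Ifit3, chr19:34583279-34583578, plus strand: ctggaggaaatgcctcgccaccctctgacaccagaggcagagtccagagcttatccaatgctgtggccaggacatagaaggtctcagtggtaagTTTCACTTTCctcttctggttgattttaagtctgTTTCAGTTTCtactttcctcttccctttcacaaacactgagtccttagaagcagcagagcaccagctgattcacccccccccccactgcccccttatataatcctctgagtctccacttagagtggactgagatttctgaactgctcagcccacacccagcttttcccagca
Gbp2, chr3:142620413-142620712, plus strand: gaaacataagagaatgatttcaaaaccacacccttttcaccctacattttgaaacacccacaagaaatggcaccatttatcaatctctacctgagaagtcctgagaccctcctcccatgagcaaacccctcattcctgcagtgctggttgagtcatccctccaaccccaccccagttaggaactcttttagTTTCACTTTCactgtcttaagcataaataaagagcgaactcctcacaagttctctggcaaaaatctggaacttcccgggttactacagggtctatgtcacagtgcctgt
Igtp, chr11:58199306-58199605, plus strand: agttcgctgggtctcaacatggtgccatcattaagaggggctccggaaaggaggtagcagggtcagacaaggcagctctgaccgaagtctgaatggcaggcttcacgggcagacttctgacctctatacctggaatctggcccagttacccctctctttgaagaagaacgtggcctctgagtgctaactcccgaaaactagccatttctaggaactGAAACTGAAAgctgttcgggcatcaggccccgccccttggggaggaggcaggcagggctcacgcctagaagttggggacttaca
Socs3, chr11:117969317-117969616, minus strand: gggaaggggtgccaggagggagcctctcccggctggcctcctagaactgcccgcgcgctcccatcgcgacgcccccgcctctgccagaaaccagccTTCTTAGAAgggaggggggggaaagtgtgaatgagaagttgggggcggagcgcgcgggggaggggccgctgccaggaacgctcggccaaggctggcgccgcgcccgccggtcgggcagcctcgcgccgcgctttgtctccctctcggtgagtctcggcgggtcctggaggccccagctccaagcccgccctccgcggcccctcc
Cish, chr9:107296409-107296708, plus strand: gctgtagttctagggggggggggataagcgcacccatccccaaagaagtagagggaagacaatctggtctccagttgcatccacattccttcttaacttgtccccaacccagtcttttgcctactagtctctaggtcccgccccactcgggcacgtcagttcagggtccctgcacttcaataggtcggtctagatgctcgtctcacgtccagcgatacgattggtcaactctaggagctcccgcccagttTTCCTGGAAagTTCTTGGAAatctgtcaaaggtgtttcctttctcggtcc

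Of the interferon-stimulated genes called higher, 9 have a window in the table, and 6 of them (66.7%) hold the interferon element: Ifit1, Ifit3, Gbp2, Igtp, Oas1a and Rsad2. Of all tested interferon-stimulated genes with a window, called or not, 8 of 16 (50%) held it, with Gbp3 and Irgm1 among those not called. The element was found in 3.74% of 6759 tested genes with a window and in 3.44% of all 32851 windows. The STAT site lay in the windows of 3 of 6 acute phase genes called higher, Socs3, Steap4 and Cish, and in 8.12% of the tested genes. Of all 15 tested acute phase genes with a window 4 (26.7%) held the STAT site, with Fga not called. The STAT site was about as frequent in tested interferon-stimulated genes, at 4 of 16 (25%), so it was not particular to the acute phase list. Ifit1 and Ifit3 each have 2 interferon elements, and Cish has 2 STAT sites 2 bases apart in the window shown. Among all tested genes called higher, 3.52% held the interferon element and 8.66% the STAT site, close to the shares of all tested genes. A match describes letters in this window and is no evidence of binding.

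Interferon-stimulated genes, which code for antiviral and antigen-processing proteins, were called higher in 11 of 19 tested members and lower in 0. Ifit1, which binds viral RNA lacking host caps, had a normalized log2 signal of 10.31 in newly transcribed RNA, against 6.62 and 6.69 in amplified total RNA. Total RNA of the same kidney group gave 6.11 and 6.35, so the new array lay far above all 4 others. The rise was 3.66 ± 0.19 (limma's standard error here and below), or 12.6-fold, with an adjusted p of 2.90e-07. In normal kidneys Ifit1 was 6.25 in new and 6.20 in both amplified arrays, and the rise was larger in contralateral than in normal kidneys by 3.61 ± 0.27 (adjusted p = 8.33e-06).

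Tap1, which carries peptides to MHC class I molecules, had 8.42 in new RNA, against 5.78 and 5.83 in amplified total RNA, a rise of 2.62 ± 0.25. The GTPase gene Igtp rose by 2.29 ± 0.18, with 9.54 in new and 7.15 and 7.34 in amplified total RNA. Another such GTPase gene, Gbp2, read by an _x_at probe set, rose by 2.54 ± 0.19, with 9.91 in new RNA against 7.28 and 7.47. Igtp, Gbp2 and the members named next were picked after their values were seen. The other members called higher rose by 1.02 to 1.54: Gbp6, Oasl1, Oas1a, Ifit3, Oasl2, Usp18 and Rsad2. Ifit3 is the 1 called member that rose as much in normal kidneys, by 1.25 against 1.29 in contralateral ones, and its difference between the kidneys was 0.04 ± 0.21 (adjusted p = 0.895). The other 10 called members had a larger rise in contralateral than in normal kidneys in the test of the difference. The list's median was 1.06 in contralateral and -0.11 in normal kidneys, against 0.01 and -0.02 over all genes. The immunoproteasome genes Psmb8 (-0.99) and Psmb9 (-0.26), also on the list, were not called. With median scaling 6 of the 19 were called higher and 1 lower, with a median of 0.83.

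Acute phase genes driven by interleukin-6 and STAT3 were called higher in 8 of 18 and lower in 1. Saa3, an acute phase serum amyloid A, had 8.87 in newly transcribed RNA, against 3.85 and 4.79 in amplified total RNA and 4.31 and 5.16 in total RNA. It rose by 4.55 ± 0.41, or 23.4-fold (adjusted p = 5.94e-06), the largest rise among the genes named here. Saa3 was dim on the other contralateral arrays, and it had a result in only 17 of 19 alternative settings. It also rose in normal kidneys, by 2.25, and the difference between the kidneys was 2.30 ± 0.58 (adjusted p = 0.00849). Haptoglobin (Hp), which binds free hemoglobin, had 10.49 in new RNA, against 6.71 and 7.40 in amplified total RNA, and rose by 3.44 ± 0.40. In normal kidneys it was 5.29 in new RNA, against 5.48 and 4.94, with no call.

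Socs3, the feedback inhibitor of cytokine receptors, had 9.74 in new RNA, against 6.59 and 6.44 in amplified total RNA (rise 3.23 ± 0.22, _x_at), and its other probe set, also _x_at, rose by 2.16. Cebpd, whose product regulates acute phase genes, had 10.29, against 8.41 and 8.18, and rose by 1.99. The ferrireductase gene Steap4, the cytokine receptor gene Osmr and the feedback inhibitor gene Cish rose by 1.88, 1.84 and 1.83. Stat3 itself rose by 1.28, and by 1.15 in normal kidneys, while its other probe set pointed the other way. The fibrinogen gene Fgg fell by 1.50, with 4.93 in new RNA against 6.50 and 6.36 in amplified total RNA. The list's median was 0.87 in contralateral and 0.13 in normal kidneys. Leukocyte markers, run beside these lists, were called higher in 3 of 18 and lower in 2. Of the summed intensity of all tested genes they made up 0.175% on the new array, against 0.137% and 0.133% in amplified total RNA. Their median was 0.27. Fcer1g, the common chain of Fc receptors, rose by 1.80 and the macrophage-expressed genes Lyz1 (1.11) and C1qb (1.20) rose on _x_at probe sets, while C1qa (-1.98) and the pan-leukocyte gene Ptprc (-1.18) fell. A plain probe set of C1qb stood at -1.60. Without contralateral amplified replicate 2, and with median scaling, 1 marker was higher and 2 lower. Leaving out _x_at probe sets gave 1 of 17 markers higher and 3 lower, with a median of -0.04. In the main fit 11.0% of all genes were higher and 14.4% lower. No leukocyte marker was at 0. The part of leukocytes in these rises was not tested.

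Cytokine and adhesion genes under NF-kB were called higher in 7 of 10 and lower in 0. Icam1, the adhesion molecule by which leukocytes attach, had 9.48 in new RNA, against 7.40 and 7.67 in amplified total RNA, a rise of 1.94 ± 0.18 (adjusted p = 7.67e-06). Csf1, the macrophage growth factor, had 8.48, against 6.67 and 6.42, and rose by 1.93 ± 0.19 on this probe set. Its 2 other probe sets, at -0.13 and -0.27, did not show the rise. The remaining called members were Tnfaip2 (1.85, _x_at), Irf1 (1.74), the neutrophil chemokine gene Cxcl1 (1.48), Birc3 (1.30) and Nfkb2 (1.26). Of the 7, Cxcl1 and Birc3 had no difference between the kidneys past the threshold. The inhibitor gene Nfkbia, itself an NF-kB target, stood at 0.88 and was not called, and Vcam1 stood at -0.26. The list's median was 1.39 in contralateral and 0.35 in normal kidneys, the highest of the 40 lists in contralateral kidneys, and 6 of 10 were called with median scaling.

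**Figure D3:**
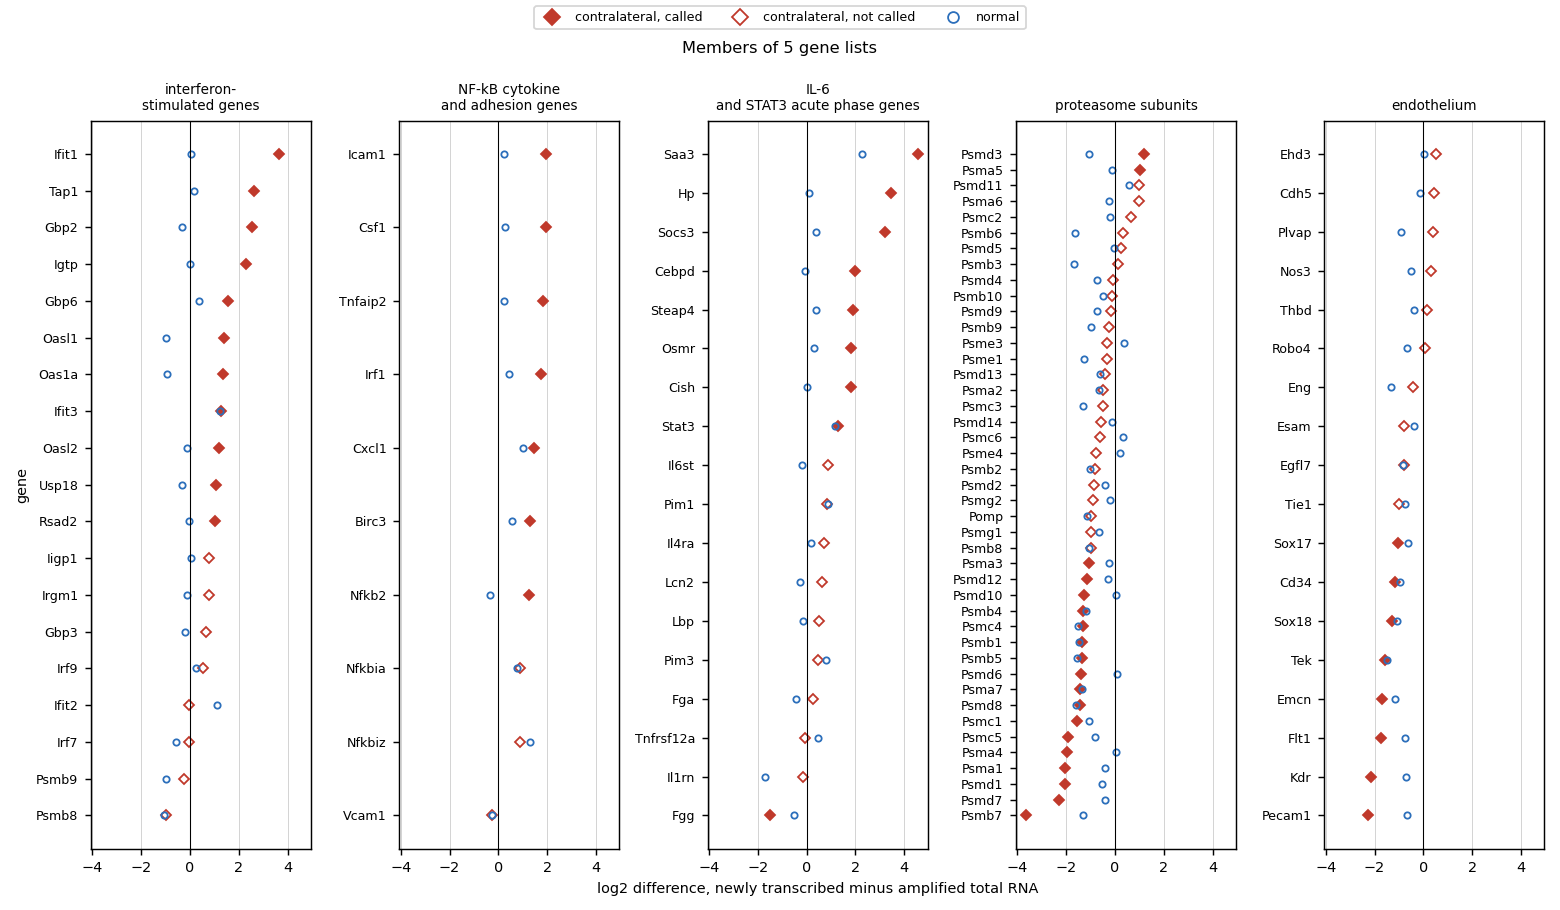
Each row is a tested member of 1 of 5 gene lists, and the horizontal axis the log2 difference, newly transcribed minus amplified total RNA. Diamonds give contralateral kidneys, filled where the gene was called, and blue circles normal kidneys. The called interferon genes run from 1.02 to 3.66 and the called endothelial genes from -2.25 to -1.03.

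Genes of glucose uptake and use gave 3 further large rises. Slc2a1, the glucose transporter GLUT1, had 9.87 in new RNA, against 6.76 and 6.93 in amplified total RNA, and rose by 3.02 ± 0.20 (adjusted p = 9.41e-07). One of its other probe sets also rose, by 2.30, and the third stood at 0.27. Hexokinase 2 (Hk2) had 8.90, against 5.97 in both amplified arrays, and rose by 2.93 ± 0.26. Pfkfb3, which makes the activator of phosphofructokinase, rose by 2.07. Each of the 3 rose more than in normal kidneys, where they differed by 0.12, 0.36 and 0.48. They are also the 3 of 19 hypoxia response genes called higher, a list with 0 members called lower and a median of -0.14. With median scaling 3 were higher and 3 lower. The hypoxia targets Vegfa (-0.51), Ldha (-0.54) and Car9 (-0.24) were not called. Of 25 genes of gluconeogenesis and glycolysis, 3 were higher and 3 lower, with a median of -0.10. Among the falls were Pck2, the mitochondrial enzyme that makes phosphoenolpyruvate, at -2.07 and fructose bisphosphatase 2 (Fbp2) at -1.28. Both lists stand beside 11.0% of all genes called higher and 14.4% lower, and the 3 and 3 of 25 were near those shares.

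Stress regulators gave a mixed picture. Of 22 immediate early genes 4 were called higher, Egr1 (1.75), Jund (1.58), Cebpb (1.17) and Nr4a1 (1.13), and 1 lower, Gadd45a (-1.90). The list's median was 0.27. With median scaling it was -0.21, with 2 members higher and 3 lower. Genes of the ATF4 amino acid stress program were higher in 6 of 17 and lower in 1, with a median of 0.74, against -0.13 in normal kidneys. Its largest rises were of the serine synthesis gene Phgdh (1.54) and of Aldh18a1 (1.41), which makes a proline precursor, both read by _x_at probe sets, and 1 of the 3 other probe sets of Phgdh stood at -0.18. The cysteine synthesis gene Cth fell by 1.71. With median scaling 2 were higher and 2 lower. Of 24 heat shock chaperone genes 2 rose, Hspa1a (1.79) and its partner Dnajb1 (1.40), and 8 fell, among them 5 subunits of the chaperonin that folds actin and tubulin, Cct8 (-2.86), Cct6a (-1.89), Tcp1 (-1.57), Cct5 (-1.29) and Cct4 (-1.17). A second probe set of Cct6a stood at 0.17. Other subunit genes of this chaperonin on the list, Cct3 (0.44), Cct7 (-0.17) and Cct2 (-0.19), were not called. By the same rule 11.0% of all genes were higher and 14.4% lower. Cct8 had 6.45 in new RNA, against 9.28 and 9.35 in amplified total RNA. Of 20 genes of endoplasmic reticulum chaperones and the unfolded protein response, 7 fell, led by the disulfide isomerase gene Pdia3 (-3.13). The 3 that rose were the chaperone gene Hyou1 (1.64) and the response genes Xbp1 (1.32) and Ddit3 (1.16). Yet 1 of the 3 other probe sets of Xbp1 stood at -0.03. Against total RNA, a comparison added after seeing the data, heat shock chaperones were higher in 6 and lower in 5. The endoplasmic reticulum list had 3 higher and 3 lower there.

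Glucocorticoid-responsive genes were called higher in 3 of 20, Zbtb16 (2.72, _x_at, with another probe set at 0.20), Hif3a (1.22) and Cdkn1a (1.19), and lower in 2, Cited2 (-2.31, with another probe set at 0.39) and Tsc22d3 (-1.04). The median was 0.72 in contralateral kidneys, with 17 of 20 above 0, and 0.39 in normal ones, where 6 were called higher and 0 lower. In contralateral kidneys 11.0% of all genes were higher and 14.4% lower. Leaving out _x_at probe sets gave 2 members higher and 3 lower there, with a median of 0.37. Median scaling gave 3 higher and 3 lower, with a median of 0.43. Of 2 members picked after their values were seen, the metallothionein gene Mt1 had 11.96 in new RNA, against 11.52 and 11.73 in amplified total RNA, and Igfbp1 had 10.30, against 9.64 and 9.55. In normal kidneys Mt1 was 8.63 in new and 9.49 and 9.38 in amplified RNA, and Igfbp1 7.81 in new and 7.48 and 7.47. New and standing RNA of these 2 genes differed by less than 2-fold in contralateral kidneys (0.33 and 0.70). Tsc22d3, the steroid-induced leucine zipper gene, fell by 1.04 ± 0.40 (adjusted p = 0.0479) in contralateral kidneys and rose by 1.60 in normal ones. Its 2 other probe sets in contralateral kidneys stood at -0.01 and 0.48.

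Other large rises under the naming rule came from no single list. Gfpt2, an entry enzyme of hexosamine synthesis, had 9.66 in new RNA, against 6.12 and 5.28 in amplified total RNA, and rose by 3.96 ± 0.35. Srebf1, the master regulator of fatty acid synthesis genes, had 9.88, against 6.76 and 6.91, and rose by 3.05 ± 0.23. The kinase gene Camkk2 (3.07), the focal adhesion gene Bcar1 (3.37) and the transcription factor gene Nfix (3.08) rose on more than 1 probe set, while another one of Nfix stood at 0.43. Nfix was 8.28 in new and 5.33 and 5.08 in amplified total RNA, but 7.56 and 7.23 in total RNA, so its rise against total RNA, a comparison added after seeing the data, was smaller, at 0.89. Besides Socs3, 3 of the named rises rest on _x_at probe sets: the imprinted non-coding RNA Meg3 (3.79), the gap junction gene Gja1 (3.41) and Dtx2 (3.61), an E3 ligase gene of the Notch pathway. Meg3 had 10.25 in new RNA, against 6.69 and 6.23 in amplified total RNA, and its second probe set, not of that kind, rose by 1.14. Of the 12 rises 1, Saa3, was also called higher in normal kidneys, and all 12 had a larger difference in contralateral kidneys, which their choice by the contralateral difference favours.

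**Figure D4:**
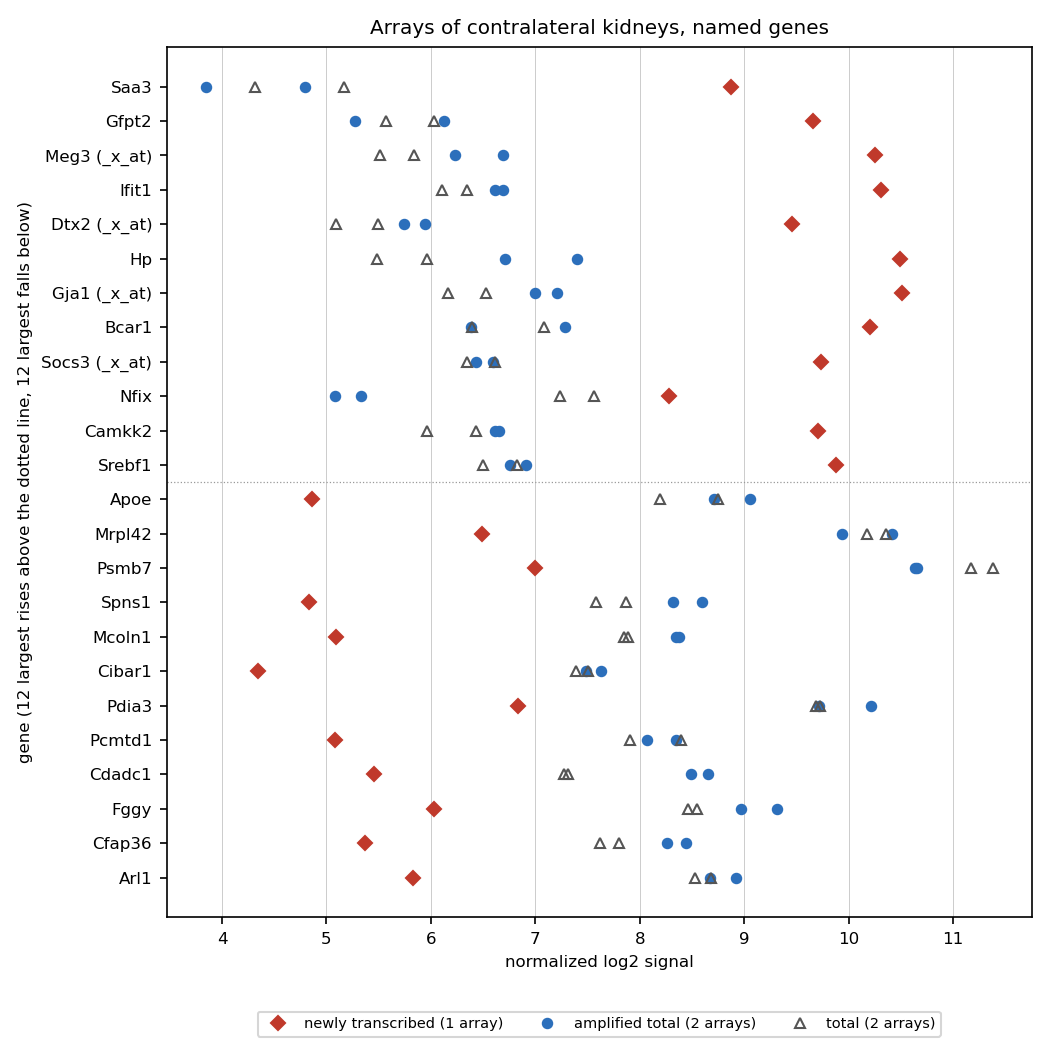
Normalized log2 signal of the 24 named genes on the 5 arrays of contralateral kidneys: newly transcribed RNA (diamonds), amplified total RNA (filled circles) and total RNA (open triangles). In the upper 12 rows the diamond lies above all 4 other arrays, and in the lower 12 rows below them. Genes read by an _x_at probe set are marked.

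The deepest falls were of Apoe, Mrpl42, Psmb7 and Spns1. Apolipoprotein E (Apoe), which carries lipids between cells, had 4.86 in new RNA, against 8.71 and 9.06 in amplified total RNA and 8.75 and 8.19 in total RNA. In deposited intensity that was 8.2, against 300.4 and 714.6 in amplified total RNA. It fell by 4.02 ± 0.22 (adjusted p = 3.59e-07), and in normal kidneys it fell by 1.78. Psmb7, a catalytic subunit of the proteasome, had 7.00, against 10.66 and 10.63, and fell by 3.64 ± 0.12 (adjusted p = 7.57e-08). Mrpl42, of the mitochondrial ribosome, had 6.49, against 9.93 and 10.42, and fell by 3.68 ± 0.18. The lysosomal transporter gene Spns1 fell by 3.62 and Mcoln1, a lysosomal calcium channel gene, fell by 3.26, while the other probe set of Mcoln1 stood at -0.07. The other 7 named falls, from -3.21 to -2.97, were of Cibar1, Pdia3, Pcmtd1, Cdadc1, Fggy, Cfap36 and Arl1. None of the 12 rests on an _x_at probe set, and 9 of them were called lower in normal kidneys too, though each by less, which the choice of the deepest contralateral falls favours.

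Subunits of large complexes were called lower more often than higher. Of 43 proteasome genes 17 were called lower and 2 higher, with a median of -0.88. Beside Psmb7, the regulatory subunit gene Psmd7 fell by 2.31, with 5.18 in new RNA against 7.38 and 7.59. Psmd3 (1.18) and Psma5 (1.04) rose, while the other probe set of Psma5 stood at -0.56. Of 74 mitochondrial ribosomal genes 24 were lower and 2 higher (median -0.52), Mrpl27 by 2.90. Of 79 subunits of the respiratory chain and ATP synthase 19 were lower and 1, Atp5e, higher (median -0.34). Ndufs4 of complex I had 6.70 in new RNA, against 9.26 and 9.36, and fell by 2.62 ± 0.14. Atp5e, the epsilon subunit of ATP synthase, had 10.86, against 8.84 and 8.97, and rose by 1.95 in contralateral kidneys, while it differed by -0.76 in normal ones. Of 44 cytosolic ribosomal genes 11 were lower and 3 higher (median -0.34), with Rps7 at -1.66 and Rpl6 at -1.65 as the largest falls and Rps25 at 1.80 as the largest rise. With median scaling the proteasome had 27 lower and 0 higher, mitochondrial ribosomal genes 33 and 0, the respiratory chain 26 and 1, and cytosolic ribosomal genes 17 and 1, where 20.7% of all genes were lower and 6.21% higher. Against total RNA the proteasome had 16 lower and 5 higher, mitochondrial ribosomal genes 42 and 3, the respiratory chain 33 and 3, and cytosolic ribosomal genes 22 and 3, where 16.5% of all genes were lower and 18.7% higher.

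These complexes were also measured in normal kidneys. Cytosolic ribosomal genes fell in 35 of 44 in normal kidneys, with a median of -1.64, and 34 of 44 had a difference between the kidneys that was higher in contralateral ones. Respiratory chain genes fell in 48 of 79 in normal kidneys (median -1.24), and 48 were higher in contralateral ones in the test of the difference. That test called 19.6% of all genes higher and 22.0% lower in contralateral kidneys. For the proteasome 16 of 43 fell in normal kidneys (median -0.64), and the difference was higher in 9 and lower in 12. In normal kidneys the call took in 9.30% of all genes in each direction.

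**Figure D5:**
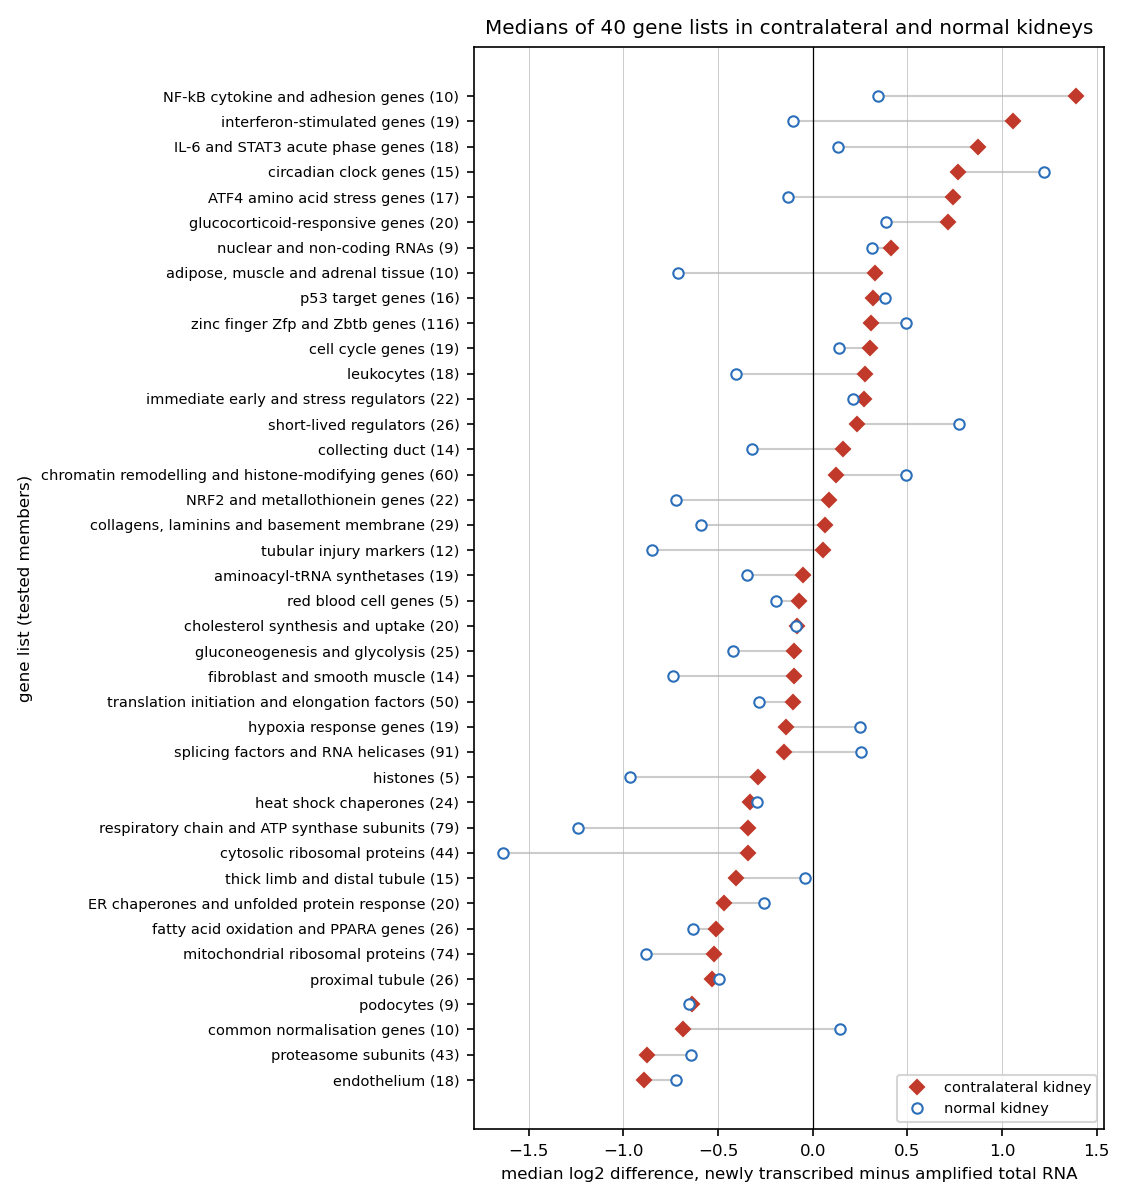
Median log2 difference, newly transcribed minus amplified total RNA, of the tested members of 40 gene lists in contralateral (red diamonds) and normal (open blue circles) kidneys, with the number of tested members in brackets. NF-kB genes (1.39) and interferon-stimulated genes (1.06) lie highest in contralateral kidneys, and endothelium (-0.89) and proteasome (-0.88) lowest. Cytosolic ribosomal genes differ most to the left in normal kidneys, at -1.64.

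Lists of transcription, chromatin and splicing genes stood near all genes, of which 11.0% were higher and 14.4% lower, or somewhat above them. Among zinc finger genes of the Zfp and Zbtb families 18 of 116 were higher and 7 lower (median 0.31), with Zbtb16 at 2.72 and Zfp46 at 2.26 on top and Zfp207 at -2.24 and Zfp101 at -1.64 lowest. Zfp207 has a probe set on the other side, at 1.28, and the other probe set of Zfp101 stood at 0.00. In normal kidneys 27 of the 116 were higher and 0 lower (median 0.49), and the difference between the kidneys was lower in contralateral ones for 26 and higher for 10. Short-lived regulators were higher in 6 of 26, with the receptor signalling inhibitor gene Spry2 at 1.87 and the HLH inhibitor gene Id3 at 1.64, and lower in 2, Dusp6 (-2.61) and Tgif1 (-1.18). In normal kidneys 10 of them were higher and 0 lower, and the difference was lower in contralateral kidneys for 12 and higher for 3. Of 60 chromatin genes 9 were higher and 4 lower (median 0.12), with the helicase gene Chd8 at 2.22 and the acetyltransferase gene Crebbp at 1.82. With median scaling 5 were higher and 7 lower (median -0.01). In normal kidneys 9 were higher and 2 lower. Splicing factors and RNA helicases were higher in 12 of 91 and lower in 14, with Dhx9 at 1.84 and Srsf5 at -2.30. Of the 12, 5 were read by other than _x_at probe sets. With _x_at probe sets left out and genes read on another one where there was one, 9 of 91 were higher and 15 lower. With median scaling 7 were higher and 22 lower, and against total RNA 20 and 12. Of 9 nuclear and non-coding RNAs Meg3, Snhg1 (1.19) and Snhg5 (1.14) were called higher and 0 lower. The other 3 probe sets of Snhg1 stood at -1.04, -0.61 and 0.18. With median scaling 1 RNA was higher and 1 lower. Malat1 stood at 0.53 and Neat1 at 0.41. Other probe sets of Malat1 stood at 4.2, 0.91 and 0.24. Gas5 (-0.52) and Tug1 (-0.48) were not called on their brightest probe sets. Their other probe sets stood at -1.73, -1.60 and -0.39 for Gas5 and at -2.05 and 1.11 for Tug1.

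Genes that mark cell types of the kidney did not move alike. Endothelial markers were called lower in 8 of 18 and higher in 0, with a median of -0.89. Pecam1, the junction protein CD31, had deposited intensities of 1.0 in new RNA, against 32.5 and 66.8 in amplified total RNA, and on the log2 scale fell by 2.25 ± 0.27. The VEGF receptor gene Kdr had 6.86, against 9.03 and 9.01, and fell by 2.16 ± 0.15. Both fell further than in normal kidneys. Yet Cdh5 (0.43) and Plvap (0.37), other markers of endothelium, were not called. The list had a median of -0.72 in normal kidneys, with 4 of 18 called lower. In the test of the difference 3 members were lower in contralateral kidneys and 3 higher, with a median difference of -0.14. The list's summed share of intensity was 0.0864% in new RNA, against 0.123% and 0.150% in amplified total RNA. In normal kidneys it was 0.0822% in new RNA, against 0.124% and 0.132%.

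Of 26 proximal tubule genes 6 were lower, where 14.4% of all genes were, and 11 were lower with median scaling and against total RNA. Among the 6 were the organic anion transporter gene Slc22a8 and the creatine pathway gene Gatm, both at -1.84, though the other probe set of Slc22a8 stood at -0.12. The list had 1 member higher, the dicarboxylate transporter gene Slc13a3 at 1.55. That probe set is an _x_at one, and the other probe set of Slc13a3 stood at -0.80. Thick limb and distal tubule genes were lower in 4 of 15 and higher in 0, with the claudin gene Cldn10 at -1.79 and calbindin (Calb1) at -1.46. Podocyte genes were lower in 1 of 9, Cdkn1c at -1.48. Fibroblast and smooth muscle genes went both ways. Myosin heavy chain 11 (Myh11) fell by 2.44, with 3.87 in new RNA against 6.29 and 6.33, and collagen I (Col1a1) rose by 1.99, with 9.33 against 7.35 and 7.34. The other probe set of Col1a1 stood at -0.51. Adipose, muscle and adrenal markers, of tissues that can adhere to dissected kidneys, were higher in 3 of 10, Retn (1.42), Thrsp (1.29) and Star (1.01). The other probe set of Thrsp stood at -0.68, and 1 of the 10 was higher with median scaling. They made up 0.310% of the intensity in new RNA, against 0.198% and 0.188% in amplified total RNA, and their part in the results was not tested.

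Genes often used as constant references were called in 4 cases of 10. B2m (-1.67), Hprt (-1.45) and Gusb (-1.32) fell and Polr2a, the large subunit of RNA polymerase II, rose by 2.83. Polr2a had 10.62 in new RNA, against 7.66 and 7.92 in amplified total RNA, on a probe set whose companion stood at 0.03. Among red blood cell genes, of which 5 were tested, Hbb-b2, whose sequence is nearly that of Hbb-b1, rose by 1.63 and Slc4a1 (_x_at, with another probe set at -0.35) rose by 1.44, and Bpgm fell by 1.07.

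Probe sets of the same gene often disagreed. Of 2861 genes with at least 2 tested probe sets, 47.1% had all of them on the same side of 0. Among such genes called higher the share was 48.3% of 416, and among those called lower 57.9% of 406. The named rises and falls were required to have all probe sets on one side, which for 6 of the 12 rises and 9 of the 12 falls means 1 probe set.

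The newly transcribed array could also be set against unamplified total RNA. It lay above both contralateral total RNA arrays for 93.8% of the probe sets called higher and below both for 96.7% of those called lower, where 46.3% of all tested probe sets lay on each side. The new array is shared by both comparisons. Normal kidneys share no array with contralateral ones. Across the 13575 probe sets, which are not independent, the differences of the 2 kidney groups correlated at r = 0.31. In normal kidneys 1199 probe sets (8.83%) were called higher and 1306 (9.62%) lower. The difference between the kidney groups passed the adjusted p alone, with contralateral kidneys the higher, for 2609 (19.2%), and with contralateral kidneys the lower for 3078 (22.7%). Of the probe sets called higher in contralateral kidneys 257 (17.2%) were also called higher in normal kidneys, where they were 21.4% of such calls. Of those called lower 502 (23.4%) were also lower in normal kidneys, 38.4% of the calls there. Calls went opposite ways for 34 probe sets higher in contralateral and lower in normal kidneys and 76 the other way round.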

How the data were processed

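Mouse kidney RNA was hybridised to 10 Affymetrix arrays of 1 colour. The authors deposited 1 linear signal intensity per probe set and array. Per the labels' protocols, RNA was reverse-transcribed, linearly amplified and biotin-labelled by a T7-based strategy. How probes were summarised or scaled is not given in the sources used here, and the number of arrays limits the precision. Median intensities ran from 18.6 to 70.3.

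These were taken as log2(intensity + 11.8), the added value being the 25th percentile of all intensities, and then quantile normalized, so fold changes of dim genes are understated. The 64 AFFX controls were set aside, and probe sets with a mean over the 10 arrays above the 40th percentile were tested. limma 3.58.1 (R 4.3.3; 6 group means over all 10 arrays, eBayes with intensity trend, 4 residual degrees of freedom) gave the contralateral and normal comparisons and their difference, with Benjamini-Hochberg adjustment over all 13575 probe sets. A call needs an adjusted p under 0.05 and at least 2-fold. The difference between the kidneys needs the adjusted p alone.

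Symbols came from the platform annotation: 20380 probe sets had 1 symbol, 691 several and 1555 none listed. A RefSeq table changed 0. A gene is its brightest tested probe set. The text names the 12 largest rises and falls among called genes whose new array lies outside both amplified arrays and whose tested probe sets all point one way, up to 2 rises and 2 falls of each list, all members of 3 lists, and the 6 largest differences between the kidneys each way. Other list members were named after their values were seen. Members and the 40 gene lists were chosen with earlier results of these data known, and some list entries were corrected by name after the files were read. Lists are described by counts and medians, with no list test.

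Alternatives changed the scaling, pseudocount, filter, trend, arrays in the fit, probe set rule, pairing and each array in turn. The fit was tested on simulated data.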

Additional observations from a re-analysis of the deposited data

Results flagged for a closer look

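The comparison of newly transcribed with amplified total RNA differed between contralateral and normal kidneys for many probe sets, as tested by the interaction of kidney and preparation in limma. The difference was higher in contralateral kidneys for 2609 probe sets and lower for 3078. Each kidney group has 1 newly transcribed array, and the contralateral one had the lower median intensity (18.6 against 70.3) and the higher Gapdh 3'/5' ratio (68.9 against 12.7). The part of these features was not tested.

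The named rises and falls were picked as the largest contralateral differences, which favours a larger value there than in normal kidneys, so what follows is a description. All 12 named rises were larger in contralateral kidneys. The excess over normal kidneys, on the log2 scale, was 3.63 for Meg3, 3.61 for Ifit1, 3.36 for Hp, 3.23 for Srebf1, 3.20 for Gfpt2, 3.02 for Nfix, 2.97 for Dtx2, 2.83 for Socs3, 2.82 for Bcar1, 2.59 for Gja1, 2.30 for Saa3 and 2.29 for Camkk2. All 12 named falls were deeper. The difference was -2.86 for Pcmtd1, -2.60 for Spns1, -2.46 for Arl1, -2.34 for Psmb7, -2.24 for Apoe, -2.06 for Pdia3, -2.04 for Cfap36, -1.89 for Cibar1, -1.85 for Cdadc1, -1.84 for Mrpl42, -1.72 for Fggy and -1.68 for Mcoln1.

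Genes called in contralateral kidneys with a difference among the 6 largest each way included some that went opposite ways. Tmsb10, which binds actin monomers, had 10.31 in new and 7.78 and 8.13 in amplified total RNA of contralateral kidneys, and 7.43 in new and 8.82 and 8.57 in amplified total RNA of normal ones, a difference of 3.63. Thap7 (3.61), Tpm2 (3.57), a muscle-type tropomyosin gene, and Ift27 (3.39), a ciliary transport gene read by an _x_at probe set, likewise rose in contralateral kidneys and stood at -0.91, -1.50 and -0.98 in normal ones, in the order named. Other probe sets of Thap7 stood at 0.52 and 0.36 in contralateral and -0.25 and 0.09 in normal kidneys. Those of Tpm2 stood at 0.75 and 1.15 in contralateral and 0.22 and -1.26 in normal kidneys.

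Dusp6, a phosphatase that switches off ERK, had 6.32 in new and 9.10 and 8.76 in amplified total RNA of contralateral kidneys. In normal kidneys it had 10.31 in new and 8.88 and 8.82 in amplified total RNA, and the difference was -4.08. The NADPH oxidase gene Nox4 had 6.19 in new and 9.23 and 8.96 in amplified total RNA of contralateral kidneys, and 10.08 in new and 9.05 and 9.22 in normal ones, a difference of -3.86. The other large ones were Nat2 (-3.63), Lin7c (-3.63), Map4k5 (-3.27) and Zfp207 (-3.25). Other probe sets of Lin7c and Zfp207 pointed the other way in contralateral kidneys. Another probe set of Nox4 was below 0 in both kidneys, at -1.28 in contralateral and -0.57 in normal ones.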

How the results depend on the processing

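The genes with the largest contralateral changes or differences between the kidneys were followed under the alternative settings. No setting left out the lone contralateral newly transcribed array. Fits without the intensity trend, or with only the new and amplified arrays, left the differences themselves unchanged, so no sign could change there. Across 841 combinations of gene and setting no sign changed, and 837 kept the call. The other 4, against contralateral total RNA, fell short of 2-fold with an adjusted p under 0.05 in limma: Nfix (0.89), Tmsb10 (0.60), Lin7c (-0.51) and Map4k5 (-0.79). Of 127 counts under alternative settings 9 left the range within 1.5 times the main value. With median scaling 844 probe sets were higher in contralateral kidneys and 1493 had a higher difference between the kidneys. With the pseudocount at the median of all values 1347 were lower. At least 4-fold gave 183 higher and 337 lower, and no size threshold 3281 and 3984. Against contralateral total RNA, an alternative chosen after seeing the data, 2322 were higher, 18 probe sets were called the opposite way from the comparison with amplified RNA, and 13 lists had more members lower than higher, against 20 of 40. There 18.7% of all genes were higher and 16.5% lower, the other way round from 11.0% and 14.4% against amplified RNA. With median scaling 28 lists had more members lower than higher. The splits of the immediate early (2 higher, 3 lower) and chromatin lists (5 higher, 7 lower) turned there. So did those of collagens and laminins (1 and 4) and of fibroblast and smooth muscle genes (2 and 3). Leukocyte, p53 target and red blood cell lists turned too, each to 1 higher and 2 lower. Without _x_at probe sets, also chosen after seeing the data, 1190 of the 1491 rises and 2096 of the 2148 falls remained called. Leaving out each array in turn gave 1484 to 1574 higher and 2111 to 2232 lower in contralateral kidneys, 1184 to 1224 and 1295 to 1330 in normal kidneys, 2055 to 2675 and 2555 to 3074 for the difference, and 18 to 20 lists. Groups share replicate numbers. Deviations of same-numbered arrays correlated at -0.07 to 0.10 over 6 pairs of groups, which cannot tell whether any came from the same mice. With a replicate block 1505 were higher and 2139 lower. List medians moved by less than the spread between amplified arrays in 571 of 800 combinations of list and setting. Some of these could not move, as fits without the trend or with only the new and amplified arrays kept the differences unchanged. The cause of the other moves was not tested. Depth is limited by the dim new array, on which 38.9% of probe sets lay below the pseudocount, against 32.2% and 22.3% in amplified total RNA.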

Other observations

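Counts of further gene groups in newly transcribed RNA of contralateral kidneys stand beside 11.0% of all genes called higher and 14.4% lower. Genes of fatty acid oxidation were called lower in 7 of 26, with the beta-oxidation enzymes Hadha at -1.45 and Decr1 at -1.41, and higher in 1, the lipid droplet gene Plin4, which had 8.68 in new RNA, against 6.07 in both amplified arrays, and rose by 2.61. The median was -0.51, and -0.63 in normal kidneys. With median scaling 11 were lower and 1 higher. Cholesterol genes were higher in 2 of 20, Srebf1 and Dhcr7 (1.88), and lower in 4, with Ebp at -1.57 and Msmo1 at -1.52. Antioxidant genes under NRF2 were lower in 5 of 22, with Txnrd1 at -1.60 and Me1 at -1.29, and higher in 3. Of these, catalase (Cat) rose by 2.02 and the sulfiredoxin gene Srxn1 by 1.39. Other probe sets of Cat (-0.55) and Txnrd1 (1.68) pointed the other way.

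Collagens and laminins were higher in 3 of 29 and lower in 2, the basement membrane collagen genes Col4a3 (-2.87) and Col4a5 (-2.34). With median scaling 1 of the list was higher and 4 lower. Circadian clock genes were higher in 3 of 15, with Usp2 at 1.70 and Rora at 1.42 (another probe set at -0.23), and lower in 1, Nr1d2 at -1.04. Without contralateral amplified replicate 2, 6 of 14 were higher. Their median was 0.77, and 1.22 in normal kidneys, where 9 of 15 were called higher. Tubular injury markers were higher in 0 of 12 and lower in 1, Krt7 at -1.94, with a median of 0.05. Translation factors were lower in 12 of 50, led by the eIF3 subunit genes Eif3e (-2.42, with another probe set at -0.23) and Eif3m (-2.38), and higher in 5, led by Eif4ebp2 (1.99) and Eif1a (1.74). The other 3 probe sets of Eif4ebp2 stood at 0.95, -0.31 and -0.34. With median scaling 19 translation factors were lower and 2 higher.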
